A study of Mus musculus with 40 samples.

Results

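The 9 genes described here belong to families that handle diacylglycerol signals and were followed in mouse follicular (FO) B cells. These are the diacylglycerol kinases Dgka, Dgkd and Dgkz, the Ras and Rap activators Rasgrp1 to Rasgrp4, and the protein kinases C Prkcb and Prkcd. They were chosen by gene name, and 9 of 9 were found among the 24732 genes of the deposited RNA-seq tables. The tables covered 28 libraries, and every value below is a TPM, a read level per transcript length, scaled to the same total in every library. All mice were C57BL/6 and carried the MD4 BCR transgene, which gives B cells a receptor for hen egg lysozyme (HEL), and all cells were FACS-sorted.

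The libraries fall into 8 conditions by genotype and preparation. Naive cells sorted ex vivo came as 2 libraries with Cd23-cre Ikzf1(fl/-) and 2 with Cd23-cre Ikzf1(fl/+), in 1 run of library numbers. A second set of naive cells, from the run that also holds the HEL and anergic libraries, came as 2 libraries with Ikzf1(fl/+) without Cre and 1 with Cd23-cre Ikzf1(fl/+), and these 3 were taken as 1 naive control condition. HEL-exposed cells were taken 1 day after intravenous HEL, 5 libraries with Ikzf1(fl/fl) without Cre (HEL controls) and 5 with Cd23-cre Ikzf1(fl/fl) (HEL Ikaros-deficient). Anergic cells came from mice that also carried ML5-tg, a transgene for soluble HEL, as 3 libraries with Ikzf1(fl/fl), Ikzf1(fl/+) and Cd23-cre Ikzf1(fl/+). CpG-stimulated cells were cultured for 1 day with CpG, a TLR9 ligand, 4 libraries with Cd23-cre Ikzf1(fl/-) and 4 with Cd23-cre Ikzf1(fl/+). Cd23-cre drives Cre from Cd23 control elements, which are active in maturing B cells. The HEL controls carry no Cre, so in the HEL comparison loss of Ikaros and presence of Cre cannot be told apart, whereas both naive and both CpG arms compared for loss of Ikaros carry Cre. There the control keeps 1 loxP-flanked allele that Cre can delete and 1 intact allele. The labels do not say whether libraries of a condition came from separate mice, so the p-values below measure the spread between these libraries, which may be technical.

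Diacylglycerol is made by phospholipase C when the B cell receptor is engaged. It recruits members of the RasGRP family, which loads Ras or Rap with GTP, and protein kinases C, which feed NF-kappaB. Diacylglycerol kinases end the signal by phosphorylating diacylglycerol to phosphatidic acid, and in lymphocytes Dgka and Dgkz are known as brakes on antigen receptor signals. Prkcb is the classical isoform needed for NF-kappaB activation by the B cell receptor, and Prkcd is known as an isoform whose loss breaks B cell tolerance.

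Ikzf1, which encodes Ikaros, was lower in every library with Cre on 2 modified alleles than in every library of its control. It lay between 60.3 and 79.3 TPM in the HEL Ikaros-deficient libraries against 195 to 261 TPM in HEL controls, between 31.7 and 39.5 against 135 to 172 TPM after CpG, and at 57.3 and 65.3 against 120.2 and 136 TPM in naive cells. A level over the whole gene cannot show how much of this is transcript without the deleted part. The 7 follicular B cell markers were present in every condition, with summed levels from 11300 to 16580 TPM ex vivo and from 1873 to 3417 TPM after CpG. Summed T cell markers stayed at 1.16 TPM or below outside the first set of naive libraries, where they reached 18.9 TPM. Libraries held 12126702 to 25424364 reads, recovered from the steps of the TPM. In sorted bulk samples fewer cells of a type and less RNA per cell cannot be told apart.

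Ikaros binds DNA at a GGGAA core, so the stretches of 250 bases before the annotated starts of the members were searched for GGGAA on either strand (TTCCC as printed). A RefSeq start was listed for 8 of the 9 members, with 15 windows in all. The motif was found in 4 windows: 1 each at Rasgrp2, Rasgrp3, Dgka and Dgkz. It occurs in 56.2% of all 32851 such windows in the same RefSeq table, so its presence does not set these genes apart. The longer form TGGGAA, which contains the first motif, occurs in 21.6% of windows and was found in those of Rasgrp2 and Dgka. The 4 windows are shown because they are those of the members that hold the motif. They are given in the direction of the gene, 5′ to 3′, and end at the base before the start, with the motif in capitals. On GRCm38.p6, a later build than the mm9 of the deposited values, they lie at chr19:6401455-6401704, plus strand, chr17:75435655-75435904, plus strand, chr10:128744077-128744326, minus strand and chr2:91963564-91963813, minus strand. A match is a description of letters and not a binding site.
Rasgrp2 second start: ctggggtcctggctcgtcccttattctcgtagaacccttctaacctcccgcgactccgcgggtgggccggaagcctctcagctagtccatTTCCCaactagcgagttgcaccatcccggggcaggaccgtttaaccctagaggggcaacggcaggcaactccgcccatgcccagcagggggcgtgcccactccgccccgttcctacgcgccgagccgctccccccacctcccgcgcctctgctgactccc
Rasgrp3 first start: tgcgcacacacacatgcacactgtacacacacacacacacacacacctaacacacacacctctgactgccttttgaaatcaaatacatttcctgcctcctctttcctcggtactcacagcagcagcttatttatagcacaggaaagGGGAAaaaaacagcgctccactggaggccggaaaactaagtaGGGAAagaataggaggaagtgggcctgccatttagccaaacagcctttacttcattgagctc
Dgka second start: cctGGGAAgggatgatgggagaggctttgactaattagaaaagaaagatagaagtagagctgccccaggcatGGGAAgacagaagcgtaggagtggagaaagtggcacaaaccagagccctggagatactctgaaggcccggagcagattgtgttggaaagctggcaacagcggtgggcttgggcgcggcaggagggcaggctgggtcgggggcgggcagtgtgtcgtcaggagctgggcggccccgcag
Dgkz first start: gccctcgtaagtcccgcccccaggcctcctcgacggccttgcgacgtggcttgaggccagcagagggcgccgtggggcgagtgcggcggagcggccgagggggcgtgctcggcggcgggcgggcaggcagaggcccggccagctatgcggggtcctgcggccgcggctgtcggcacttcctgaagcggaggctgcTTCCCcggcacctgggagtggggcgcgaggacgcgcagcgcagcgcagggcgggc

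The 9 genes differed in level. In naive controls Rasgrp2 was highest with 207, 272 and 327 TPM, followed by Dgkd with 216, 233 and 248 TPM. Prkcd, Prkcb and Dgkz came next with means of 182 ± 15.2, 179 ± 14.0 and 159.9 ± 13.4 TPM (SD, n = 3), and neighbours among these 3 overlapped. Dgka had a mean of 101 TPM, Rasgrp3 of 72.7 and Rasgrp1 of 41.2, and Rasgrp4, at 12.0 to 14.1 TPM, was the lowest of the 9. Rasgrp4 is best known from mast cells, and the 5 mast cell and basophil markers were at 0 in these 3 naive libraries. Dgka, Dgkz and Rasgrp4 have gene models marked as overlapping another, so their values are uncertain. The neighbour of Rasgrp4 is Fam98c, which at means of 14.4 to 26.9 TPM lay above Rasgrp4 in every condition, while Pmel beside Dgka did not pass a mean of 1.45 TPM.

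**Figure D1:**
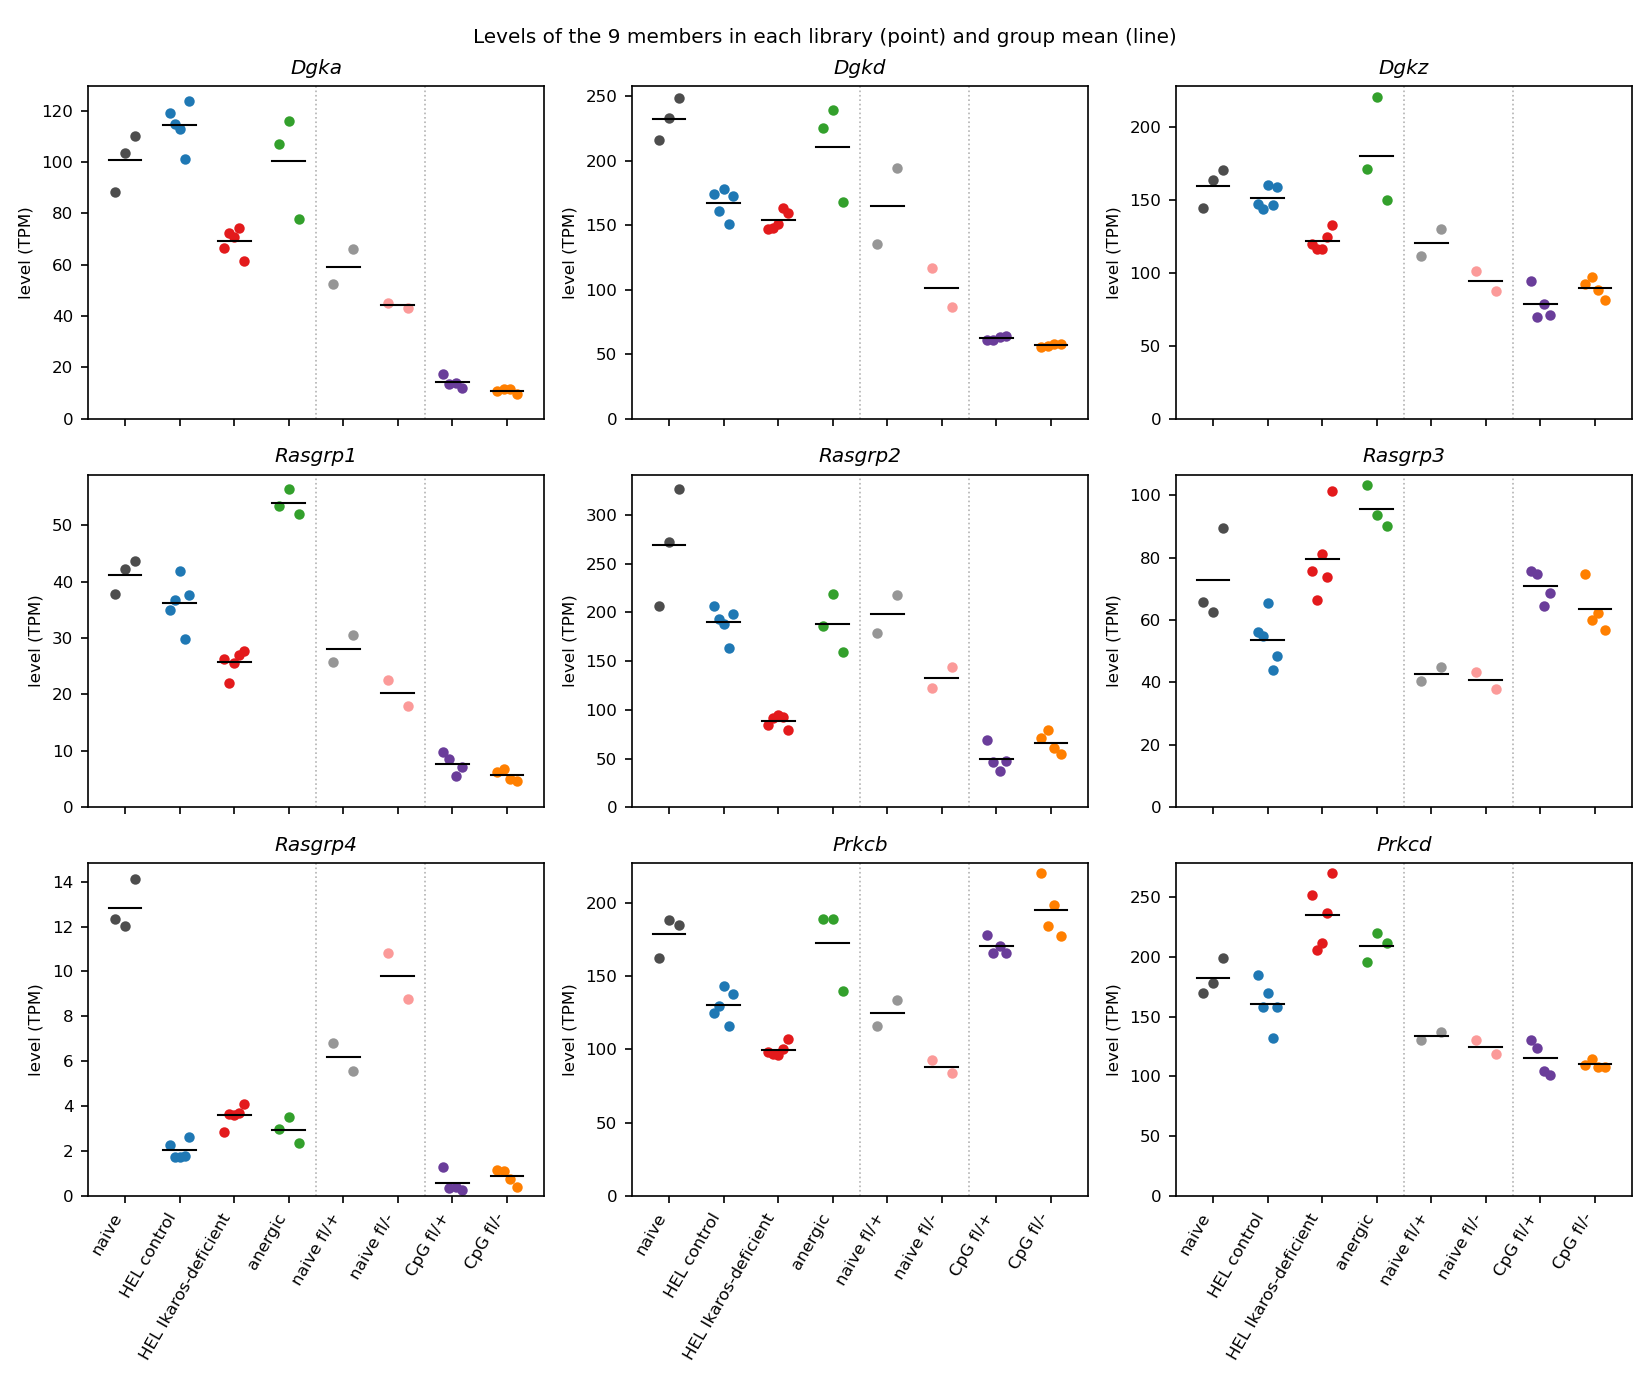
Level of each member in TPM on the vertical axis, with 1 panel per gene, for each library (point) and the mean of each condition (line). Dotted lines separate the 3 runs of library numbers. Rasgrp2 falls to 79.5 to 94.8 TPM in HEL Ikaros-deficient cells, while Rasgrp3, Rasgrp4 and Prkcd lie above their HEL controls there.

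The first question was what loss of Ikaros did to these genes 1 day after antigen. In HEL-exposed cells 5 members fell and 3 rose, and Dgkd did not pass the test (limma on log2(TPM + 1), adjusted p under 0.05). Rasgrp2 fell most, and with it fell Dgka, Rasgrp1, Prkcb and Dgkz. Rasgrp3, Rasgrp4 and Prkcd rose, so that members of the RasGRP and of the PKC families moved in opposite directions. Many other genes passed in this comparison: 36.9% of the 10258 tested, 12.9% as higher and 24.1% as lower. The 5 libraries of each arm did not overlap for 8 of the 9 members, as for 25.8% of all genes tested. The log2 difference of all genes had a median of -0.08, and the 8 calls and 9 directions were the same with median-ratio scaling of the libraries, which turned the 1321 higher and 2469 lower genes into 1768 and 1708.

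Rasgrp2 encodes the exchange factor for Rap1 that turns on integrins in blood cells. Its levels were 206, 193, 188, 163 and 198 TPM in HEL controls and 84.8, 91.5, 94.8, 93.1 and 79.5 TPM in HEL Ikaros-deficient cells. The lowest control library was thus well above the highest deficient one, and the deficient libraries lay close together. The means differed 2.14-fold, a log2 difference of -1.09 ± 0.07 (SE; limma, adjusted p = 1.434e-07), which ranked 71 by p among the 10258 genes tested.

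Rasgrp1, the Ras activator best known from T cells, fell as well. Its controls held 34.9, 36.7, 41.8, 29.8 and 37.6 TPM and the deficient libraries 26.3, 22.1, 25.6, 26.9 and 27.7 TPM, a log2 difference of -0.47 ± 0.09 (limma, adjusted p = 0.001012). Rasgrp3, the family member that B cell receptor signals are known to use, went the other way. It was at 56.1, 55.0, 65.3, 43.9 and 48.4 TPM in controls and at 75.8, 66.5, 81.0, 73.7 and 101 TPM without Ikaros. The highest control lay just under the lowest deficient library, and the log2 difference was 0.56 ± 0.12 (limma, adjusted p = 0.002268). Rasgrp4 stayed low in both arms, with 1.73 to 2.63 TPM (87 to 118 reads) in controls and 2.85 to 4.11 TPM (148 to 251 reads) without Ikaros. Its log2 difference was 0.60 ± 0.11 (limma, adjusted p = 0.0008229). Fam98c, whose model overlaps it, had means of 17.6 and 22.1 TPM in the same arms, and the part of its reads in Rasgrp4 was not tested.

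Among the kinases that remove diacylglycerol, Dgka changed most. HEL controls held 119, 115, 113, 101 and 124 TPM and HEL Ikaros-deficient cells 66.5, 72.4, 70.8, 74.3 and 61.3 TPM. All 5 deficient libraries were below all controls, with a 1.66-fold difference of the means and a log2 difference of -0.72 ± 0.07 (limma, adjusted p = 4.233e-06). Dgkz fell less, from a mean of 152 ± 7.68 to 122 ± 6.88 TPM (SD, n = 5 each), with a log2 difference of -0.31 ± 0.05 (limma, adjusted p = 0.0007166). Dgkd, the most abundant of the 3, had 151 to 178 TPM in controls and 147 to 163 TPM without Ikaros. These ranges overlapped, and its log2 difference of -0.12 ± 0.06 did not pass (limma, adjusted p = 0.1139). Without HEL control replicate 4, the lowest control, Dgkd passed at -0.16 (limma, adjusted p = 0.04248). Summed over the 3 kinases the mean level was 433 ± 23.9 TPM in controls and 345 ± 12.3 TPM without Ikaros.

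Of the 2 protein kinases C, Prkcb fell and Prkcd rose. Prkcb was at 125, 129.6, 144, 116 and 138 TPM in controls and at 98.4, 97.2, 96.0, 100.1 and 107 TPM without Ikaros, a log2 difference of -0.38 ± 0.06 (limma, adjusted p = 0.0003819). Prkcd was at 185, 158, 170.0, 132 and 158 TPM in controls and at 251, 206, 212, 236 and 269.8 TPM without Ikaros, a log2 difference of 0.55 ± 0.09 (limma, adjusted p = 0.0005297). No deficient library of either gene entered the control range. The ratio of Prkcd to Prkcb was 1.24 ± 0.141 in HEL controls and 2.35 ± 0.191 in HEL Ikaros-deficient cells, the highest of the 8 conditions. Dendritic cell markers, summed over 5 genes of which 3 reached 1 TPM in a deficient library, lay between 6.06 and 7.54 TPM without Ikaros and between 1.38 and 2.40 TPM in controls. Macrophage and monocyte markers lay between 6.63 and 11.5 TPM against 4.48 to 5.49 TPM, and NK cell markers, nearly all Prf1, between 4.77 and 8.95 TPM against 9.70 to 12.6 TPM. The 7 follicular B cell markers summed to 11300 to 12820 TPM without Ikaros and to 13660 to 14680 TPM in controls. Their part in these differences was not tested. Each arm held 3 female and 2 male libraries, as judged from the Y-linked gene Ddx3y. With the 2 male libraries of each arm alone, an alternative chosen after seeing the data, Dgka, Rasgrp2, Rasgrp3 and Prkcd passed and the other 5 members did not.

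In naive cells the same question was asked with 2 libraries against 2, both with Cre. No member passed, against 0.0199% of 10053 genes called by limma, 2 genes in all, and 896 genes had an unadjusted p under 0.05. Rasgrp2 was at 122 and 144 TPM with Ikzf1(fl/-) and at 179 and 218 TPM with Ikzf1(fl/+), a log2 difference of -0.57 ± 0.17 (limma, adjusted p = 0.2922). Dgkd was at 116 and 86.5 TPM against 135.5 and 194.5 TPM, a log2 difference of -0.69 ± 0.22 (limma, adjusted p = 0.3482). Both pairs were separate, as were those of 6 other members and of 40.6% of all genes tested, and 8 of the 9 differences were negative with Rasgrp4 the exception at 0.58 ± 0.24. Rasgrp4 was at 10.8 and 8.76 TPM with Ikzf1(fl/-) and at 6.80 and 5.57 TPM with Ikzf1(fl/+). With the spread estimated over all 28 libraries Dgkd and Prkcb passed as lower. The median over all genes was -0.12. Each arm held 1 male and 1 female library, T cell markers summed to 4.69 and 5.15 TPM with Ikzf1(fl/-) and to 5.43 and 18.9 TPM with Ikzf1(fl/+), and neutrophil markers to 20.8 and 75.4 against 35.3 and 86.9 TPM. Their part was not tested.

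After 1 day of CpG the members were at other levels, in another run of library numbers and after culture, which cannot be told apart. Dgka was at 9.49 to 17.6 TPM, Rasgrp1 at 4.58 to 9.73 TPM and Rasgrp2 at 37.0 to 79.2 TPM, all below every ex vivo library. Rasgrp3, at 56.96 to 75.8 TPM, lay within the ex vivo range, and Prkcb, at 166 to 220.1 TPM, reached above its highest ex vivo library. Rasgrp4 had 9 to 46 reads per library and was not tested. Neutrophil markers summed to 0.206 TPM or less in the first 4 library numbers, to 6.80 and 18.2 TPM with Ikzf1(fl/-) in the other 4, and to 14.8 and 122 TPM with Ikzf1(fl/+) there. NK cell markers summed to 1.45 to 1.93 TPM with Ikzf1(fl/-) and to 2.91 to 4.18 TPM with Ikzf1(fl/+), most of it Prf1. The part of either in the values below was not tested.

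Loss of Ikaros in CpG-stimulated cells gave no member call among the 8 tested by limma, against 14.9% of 10386 genes called (9.14% higher, 5.8% lower). Before adjustment, 4 members (Dgka, Dgkd, Rasgrp2 and Prkcb) and 3153 genes had p under 0.05. Dgka was at 10.7, 11.5, 11.5 and 9.49 TPM with Ikzf1(fl/-) and at 17.6, 13.5, 14.1 and 12.0 TPM with Ikzf1(fl/+). These libraries did not overlap, and the log2 difference was -0.37 ± 0.12 (limma, adjusted p = 0.07316). Rasgrp2 was at 71.0, 79.2, 60.7 and 54.4 TPM against 68.9, 46.6, 37.0 and 48.0 TPM, so that its arms overlapped, with a log2 difference of 0.42 ± 0.18 (limma, adjusted p = 0.1641). Prkcb was at 220.1, 184, 199 and 177 TPM against 178, 166, 171 and 166 TPM, a log2 difference of 0.19 ± 0.08 (limma, adjusted p = 0.1339). Prkcd, at 108 to 115 TPM against 102 to 130.2 TPM, had a log2 difference of -0.05 ± 0.09 (limma, adjusted p = 0.7274). The calls moved with the fit: with a term for the 2 blocks of library numbers, or with the spread of all 28 libraries, Dgka and Rasgrp1 passed as lower. Without CpG Ikzf1(fl/+) replicate 1, Dgkz (0.29) and Rasgrp2 (0.58) passed as higher.

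**Figure D2:**
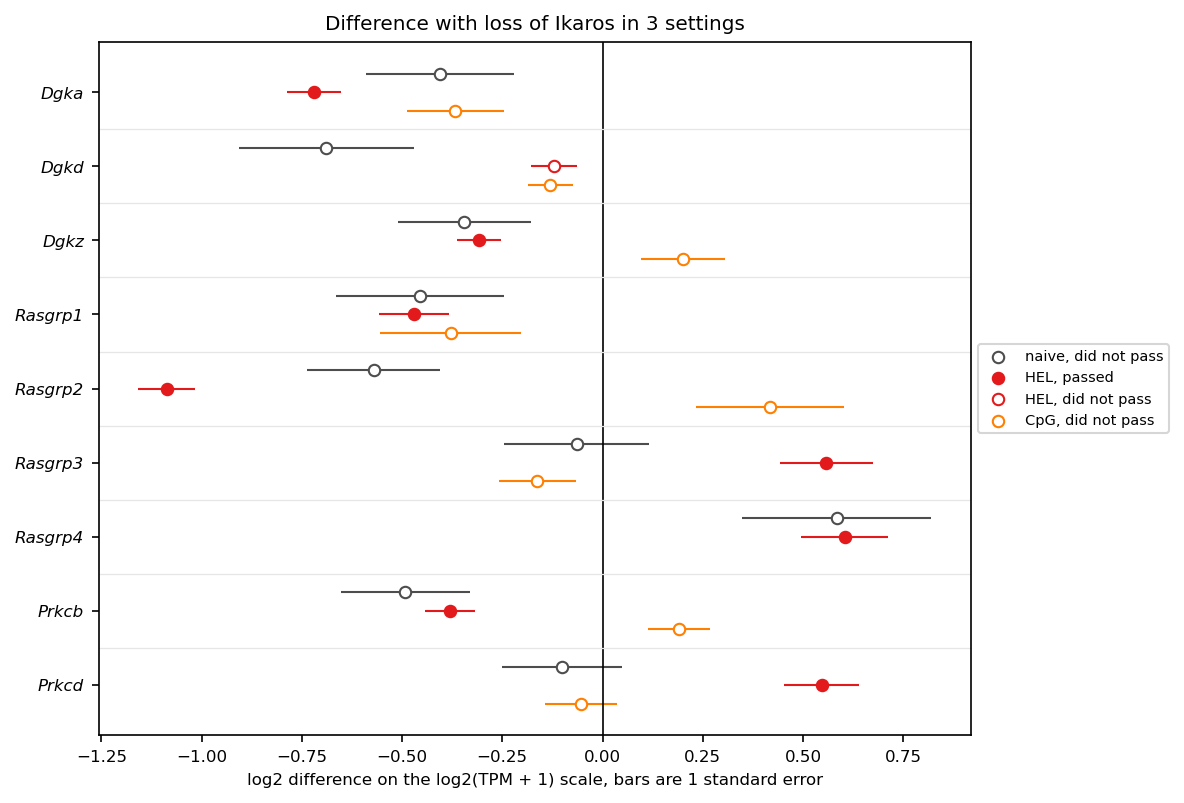
Log2 difference with loss of Ikaros on the horizontal axis, on the log2(TPM + 1) scale with 1 standard error, for each member in naive (2 against 2 libraries), HEL-exposed (5 against 5) and CpG-stimulated cells (4 against 4). Filled points passed at an adjusted p under 0.05, which only HEL points did, and Rasgrp2 lies at -1.09 after HEL and at 0.42 after CpG.

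Whether loss of Ikaros acted differently after CpG and after HEL was tested as the difference of the 2 effects, which share no library. It passed for 5 of the 9 members (3 higher, 2 lower), against 22.4% of 11050 genes (15.2% higher, 7.19% lower). Rasgrp2 differed most, by 1.5 ± 0.19 on the log2 scale (limma, adjusted p = 3.17e-05), with an effect of -1.09 after HEL and 0.42 after CpG. Prkcb differed by 0.57 ± 0.10 (adjusted p = 0.0004528) and Dgkz by 0.51 ± 0.11 (adjusted p = 0.003388) in the same direction. Rasgrp3 and Prkcd, which rose after HEL, differed by -0.72 ± 0.17 (limma, adjusted p = 0.005167) and -0.60 ± 0.14 (limma, adjusted p = 0.004829). For Dgka the difference of 0.35 ± 0.13 did not pass (limma, adjusted p = 0.06151), nor did those of Dgkd and Rasgrp1. Rasgrp4 did not pass either, but it met the filter on low values only through the HEL libraries. Its CpG means were 0.872 TPM with Ikzf1(fl/-) and 0.579 TPM with Ikzf1(fl/+), so its result cannot show whether the effects differ. Dgka passed with a term for the block of library numbers (limma, adjusted p = 0.04221), and without HEL control replicate 4 (0.40), CpG Ikzf1(fl/+) replicate 1 (0.45) or CpG Ikzf1(fl/-) replicate 4 (0.41). The 2 settings also differ in genotype (fl/fl against a control without Cre, and fl/- against fl/+ with Cre), in run and in culture, which cannot be told apart from the stimulus.

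The second question was how these genes differed between naive, HEL-exposed and anergic cells with Ikaros. The 3 naive, 5 HEL control and 3 anergic libraries were compared pairwise, and since each pair shares libraries with the next, the values are given side by side. HEL controls against naive cells gave 5 members lower and none higher by limma, against 38.1% of 10448 genes lower, 9.92% higher and 48% in either direction. Anergic against naive cells gave 1 member lower, against 2.89% of 10519 genes lower and 7.37% in either direction. Anergic cells against HEL controls gave 5 members higher, against 36.8% of 10491 genes higher, 5.39% lower and 42.2% in either direction. The log2 differences of all genes had medians of -0.16, 0.07 and 0.23 for HEL controls against naive, anergic against naive and anergic against HEL controls. The naive and anergic libraries were all male, whereas the HEL controls held both sexes, which only the alternative with male libraries addressed. Genotype and Cre also differed: Ikzf1(fl/+) with or without Cre in naive cells, Ikzf1(fl/fl) without Cre in HEL controls, and a mix in anergic cells. These differences in genotype and Cre cannot be told apart from antigen.

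Rasgrp4 was the member that set naive cells apart. It was at 12.4, 12.0 and 14.1 TPM in naive cells, at 1.73 to 2.63 TPM in HEL controls and at 2.96, 3.51 and 2.38 TPM in anergic cells. The 3 naive libraries lay above all 8 antigen-exposed ones, with means 6.32-fold higher than in HEL controls and 4.35-fold higher than in anergic cells. The log2 differences were -2.20 ± 0.12 for HEL controls (limma, adjusted p = 2.566e-06) and -1.81 ± 0.14 for anergic cells (limma, adjusted p = 0.0004593). Fam98c moved from a mean of 22.2 TPM in naive cells to 17.6 and 15.1 TPM in the same groups. Macrophage and monocyte markers summed to 7.05 to 13.0 TPM in naive cells, 4.48 to 5.49 TPM in HEL controls and 2.98 to 11.5 TPM in anergic cells, and NK cell markers, nearly all Prf1, to 13.4 to 18.2, 9.70 to 12.6 and 16.2 to 22.7 TPM. Their part in these and the other differences from naive cells was not tested. HEL controls and anergic cells overlapped, and their difference of 0.38 ± 0.15 did not pass (limma, adjusted p = 0.05899).

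Rasgrp1 and Rasgrp3 had their highest means in anergic cells. So did Dgkz, at a mean of 181 TPM, but its libraries overlapped those of naive cells and of HEL controls. Rasgrp1 was at 53.3, 56.3 and 52.0 TPM in anergic cells, above all 5 HEL controls and all 3 naive libraries, which held 37.9, 42.3 and 43.6 TPM. It passed against HEL controls, with 0.57 ± 0.10 (limma, adjusted p = 0.002835). Against naive cells its difference of 0.38 ± 0.09 had an adjusted p of 0.05038 by limma, and it passed without anergic replicate 3 (0.40, limma, adjusted p = 0.04349). Rasgrp3 was at 103, 93.6 and 90.1 TPM in anergic cells, 43.9 to 65.3 TPM in HEL controls and 65.9, 62.7 and 89.5 TPM in naive cells. It passed against HEL controls with 0.83 ± 0.12 (limma, adjusted p = 0.0009675) and not against naive cells (0.41 ± 0.14, limma, adjusted p = 0.135). Without naive Cd23-cre Ikzf1(fl/+) replicate 3 it passed against naive cells as well (0.56, limma, adjusted p = 0.04634). Between HEL controls and naive cells Rasgrp3 fell by 0.42 on the log2 scale (SE 0.14, limma, adjusted p = 0.02814), a call lost without naive Cd23-cre Ikzf1(fl/+) replicate 3, without HEL control replicate 4, with no filter on low TPM and under median-ratio scaling or voom.

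Rasgrp2 was lower in HEL controls than in naive cells. HEL controls, at 163 to 206 TPM, lay just below the lowest naive library at 207 TPM, a log2 difference of -0.48 ± 0.13 (limma, adjusted p = 0.01118). That call was lost without naive Cd23-cre Ikzf1(fl/+) replicate 3, the highest at 327 TPM, and under median-ratio scaling (-0.29, adjusted p = 0.06882). Anergic cells, at 186, 219 and 159 TPM, did not differ from HEL controls beyond their spread (-0.02 ± 0.11, limma, adjusted p = 0.901). Against naive cells the difference of -0.50 ± 0.18 did not pass (limma, adjusted p = 0.1461). It passed as lower with voom (-0.57, limma, adjusted p = 0.04673).

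Dgkd and Prkcb were lower in HEL controls than in naive cells. Dgkd was at 151 to 178 TPM against 216, 233 and 248 TPM, a log2 difference of -0.47 ± 0.07 (limma, adjusted p = 0.0005213). Prkcb was at 116 to 144 TPM against 162.5, 188 and 185 TPM, a log2 difference of -0.45 ± 0.08 (limma, adjusted p = 0.001258). Neither gene's arms overlapped. In anergic cells both spread widely, with Dgkd at 225, 239.5 and 168 TPM and Prkcb at 189, 189 and 139.8 TPM, where the low library in each was the one with Cd23-cre Ikzf1(fl/+). Against HEL controls they passed as higher with 0.32 ± 0.12 (limma, adjusted p = 0.04723) and 0.39 ± 0.11 (limma, adjusted p = 0.01996), and Prkcd with 0.38 ± 0.10 (limma, adjusted p = 0.01484). The call of Dgkd was lost with no filter, and when any HEL control or anergic replicate 1 or 2 was left out, and that of Prkcb without anergic replicate 1 or 2. These 3 calls were lost under median-ratio scaling, which left Rasgrp1 and Rasgrp3 as higher and Dgka as lower (-0.46, limma, adjusted p = 0.01145). With male libraries only the calls of Dgkd (0.37) and Prkcb (0.43) were lost too. Dgkz and Dgka did not pass in any of the 3 pairs with the TPM as deposited and no library left out. Without anergic replicate 3 Dgkz passed as higher in anergic cells than in HEL controls (0.36, limma, adjusted p = 0.01654). Without HEL control replicate 4 Dgka passed as higher in HEL controls than in naive cells (0.23, limma, adjusted p = 0.04539). Under median-ratio scaling Dgka was higher in HEL controls than in naive cells (0.37, limma, adjusted p = 0.003092).

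The HEL Ikaros-deficient cells were also set beside the naive and the anergic cells. These conditions differ in HEL exposure, Ikaros, Ikzf1 genotype and Cre, which cannot be told apart. The deficient libraries also held both sexes, whereas the naive and anergic libraries were all male, which only the alternative with male libraries addressed. Against naive cells 7 members were lower and 1 higher, against 64.2% of 10538 genes called (15.4% higher, 48.8% lower). Rasgrp2 was 3.03-fold lower by its means, a log2 difference of -1.57 ± 0.12 (limma, adjusted p = 2.107e-06). Prkcb was 1.79-fold lower, a log2 difference of -0.83 ± 0.07 (limma, adjusted p = 2.454e-06). Prkcd was the member that was higher, by 0.36 ± 0.09 (limma, adjusted p = 0.005878), and Rasgrp3 at 0.13 ± 0.14 did not pass (limma, adjusted p = 0.4178). Under median-ratio scaling Rasgrp3 passed as higher (0.38, limma, adjusted p = 0.01996) and the call of Dgkz was lost (-0.13, limma, adjusted p = 0.0579), and voom did the same. Against anergic cells 6 members were lower and none higher, against 63.1% of 10570 genes called (11.9% higher, 51.2% lower). Rasgrp1 was 2.09-fold lower and Rasgrp2 2.12-fold lower, and no library of one condition entered the range of the other for either gene. Against anergic cells the calls of Dgka, Dgkd and Dgkz (-0.52, -0.44 and -0.55 on the log2 scale) were lost under median-ratio scaling and voom. They were also lost with male libraries only (-0.54, -0.37 and -0.47). Under median-ratio scaling Rasgrp4 (0.46) and Prkcd (0.48) passed as higher, as they did with voom. The calls of Rasgrp1, Rasgrp2 and Prkcb against anergic cells held in every alternative tried.

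**Figure D3:**
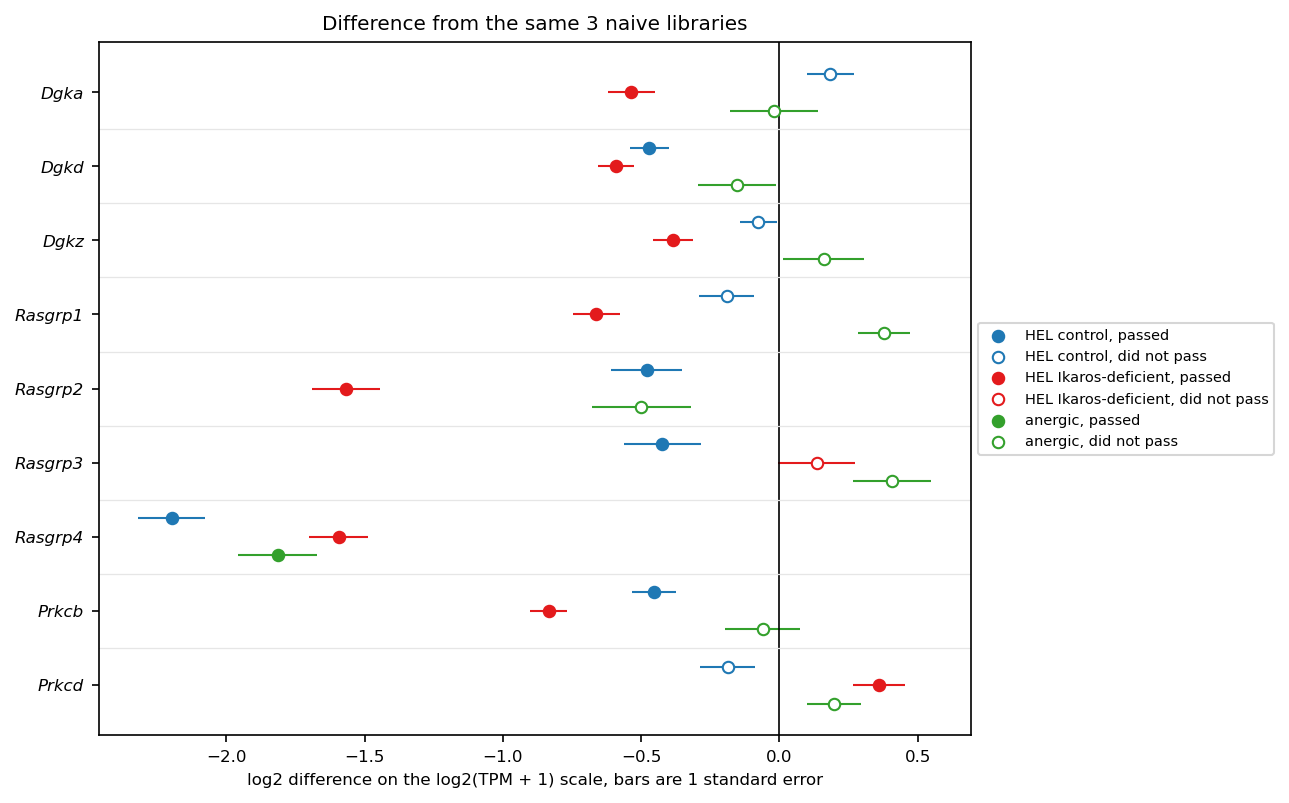
Log2 difference from the same 3 naive libraries on the horizontal axis, on the log2(TPM + 1) scale with 1 standard error, for HEL controls, HEL Ikaros-deficient cells and anergic cells. Filled points passed at an adjusted p under 0.05, and Rasgrp4 passed in all 3, at -2.20, -1.59 and -1.81. The 3 comparisons share their naive libraries and are not independent.

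Because TPM is a level per length, members of a family can be set beside each other within a library. Rasgrp2 made up 67.7 ± 3.14% of the summed TPM of the 4 RasGRP genes in naive cells (n = 3) and 67.4 ± 2.38% in HEL controls (n = 5). Its share was 55.1 ± 3.37% in anergic cells (n = 3) and 45.1 ± 4.68% in HEL Ikaros-deficient cells (n = 5). The share of Rasgrp3 ran the other way, at 18.5 ± 2.17%, 19.0 ± 1.87%, 28.2 ± 2.69% and 40.1 ± 4.48% in the same order. After CpG Rasgrp3 was the larger of the 2 with Ikzf1(fl/+), at 55.4 ± 4.85% against 38.3 ± 4.34% for Rasgrp2, and the 2 were close with Ikzf1(fl/-), at 46.7 ± 3.94% and 48.5 ± 3.52% (n = 4 each). The summed RasGRP level was 396 ± 75.7 TPM in naive cells, 282 ± 24.8 TPM in HEL controls and 198 ± 11.6 TPM in HEL Ikaros-deficient cells. Within the kinases, Dgkz made up 57.04 ± 1.95% after CpG with Ikzf1(fl/-) and 50.5 ± 2.82% with Ikzf1(fl/+), against 32.4 ± 0.294% in naive cells. These shares are descriptions of the levels above and were not tested.

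**Figure D4:**
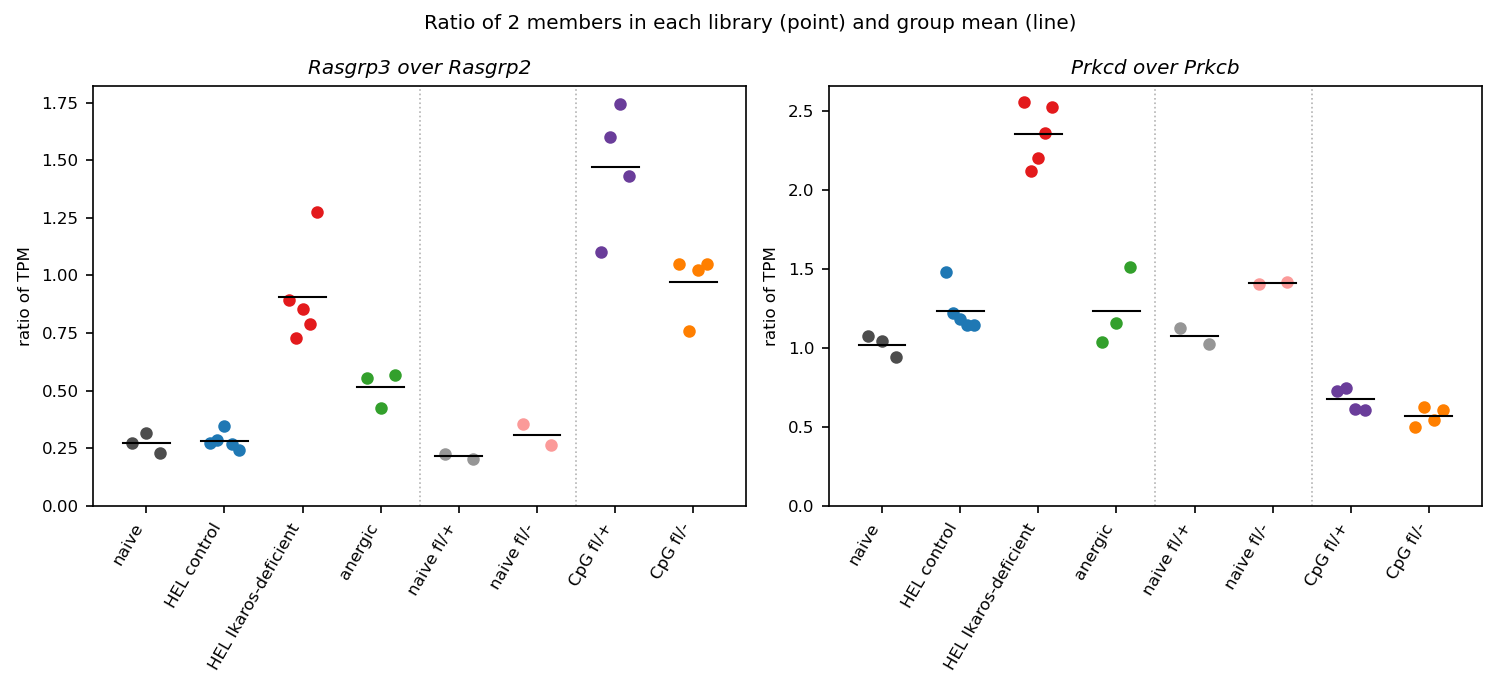
Ratio of TPM of Rasgrp3 to Rasgrp2 (left) and of Prkcd to Prkcb (right) in each library (point) with the mean of each condition (line). The Prkcd to Prkcb ratio lies between 2.12 and 2.56 in HEL Ikaros-deficient cells and between 0.499 and 0.746 after CpG, and the Rasgrp3 to Rasgrp2 ratio between 0.727 and 1.28 in HEL Ikaros-deficient cells against 0.244 to 0.348 in HEL controls.

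The rest of the pathway was read from 8 lists of 84 genes. After HEL 58 of them could be tested for loss of Ikaros, and 10 were higher, 14 lower and 34 did not pass, where 12.9% of all genes were higher and 24.1% lower, with a median log2 difference of -0.05 where that of all genes was -0.08. The 10 higher genes include Prkch, which passed the filter on low values only through the deficient libraries, so its call is no test. Among the 10 tested GTPase-activating proteins, which switch Ras and Rap off, 5 fell and 2 rose. Rasa3, which acts on Rap1 and Ras, fell from a mean of 262 to 155 TPM (-0.76 ± 0.06, limma, adjusted p = 1.421e-06). Rap1b, the GTPase that Rasgrp2 loads, fell from 319 to 223 TPM (-0.51 ± 0.06, limma, adjusted p = 1.403e-05), and the MAP kinase Mapk3 fell from 83.9 to 58.0 TPM (-0.52 ± 0.08, limma, adjusted p = 0.0001664). Of the 15 tested genes of the Ras, Rap and MAP kinase chain 3 rose and 3 fell. Rasa4 rose from 18.7 to 38.0 TPM (1.01 ± 0.15, limma, adjusted p = 0.0002026), though its model overlaps another.

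Among the enzymes that make and use diacylglycerol, of 5 tested phospholipases C, Plcb2 rose from 32.1 to 47.4 TPM (0.55 ± 0.08, limma, adjusted p = 0.000168) and 4 did not pass. Of 8 tested genes of diacylglycerol metabolism 2 rose and 1 fell, the last being the sphingomyelin synthase Sgms1 (32.8 to 19.7 TPM; -0.71 ± 0.11, limma, adjusted p = 0.0002152). The 2 other diacylglycerol kinases that could be tested did not pass. Of 7 tested other protein kinases C and D, 3 fell (Prkd2, Prkcz and Prkce) and 1 rose (Prkch), where Prkcz, Prkce and Prkch are named after their values were seen and Prkch passed the filter on low values only through the deficient libraries. Prkd2, a kinase activated by diacylglycerol and protein kinase C, fell from 264 to 198 TPM (-0.41 ± 0.06, limma, adjusted p = 0.0002489). With male libraries only Prkd2 (-0.32) and Sgms1 (-0.58) did not pass.

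After CpG 62 list genes were tested, and 8 were higher and 10 lower with loss of Ikaros. Over all genes 9.14% were higher and 5.8% lower, and the medians were -0.03 for the lists and 0.02 for all genes. Among the 8 is Prkch, which passed the filter on low values only through the Ikzf1(fl/-) libraries, so its call is no test. Prkce, a protein kinase C that responds to diacylglycerol without calcium, was at 38.0, 33.8, 40.8 and 35.5 TPM with Ikzf1(fl/-) and at 23.5, 19.0, 22.9 and 19.2 TPM with Ikzf1(fl/+). It rose by 0.78 ± 0.10 (limma, adjusted p = 0.001204). Rasa3 fell after CpG too (-0.46 ± 0.10, limma, adjusted p = 0.01721), a call lost without Ikzf1(fl/-) replicate 3 (-0.41) or Ikzf1(fl/+) replicate 4 (-0.42). Prkce also passed (1.02 ± 0.12, limma, adjusted p = 1.396e-05) when the CpG effect was set against the HEL effect. In naive cells 0 of 60 tested list genes passed.

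With antigen, 35 of 58 tested list genes were lower and 3 higher in HEL controls than in naive cells, where 38.1% of all genes were lower and 9.92% higher, at a median of -0.30 against -0.16 over all genes. The kinase Map2k1 went from 253 to 144 TPM (-0.81 ± 0.05, limma, adjusted p = 6.102e-06). In anergic against naive cells 4 of 60 were higher and 7 lower, where 4.48% of all genes were higher and 2.89% lower. Rap1gap2, which switches Rap1 off, was at a mean of 3.05 TPM in anergic and 17.5 TPM in naive cells (-2.19 ± 0.15, limma, adjusted p = 0.0001819). The Ras-related gene Rras2 was at 62.9 and 40.5 TPM (0.63 ± 0.11, limma, adjusted p = 0.01115), a call lost without anergic replicate 1 (0.61), naive Ikzf1(fl/+) replicate 1 (0.57) or replicate 2 (0.60).

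Over the 16 libraries of the run with naive, HEL and anergic cells, the genes closest to each member were taken among 7172 genes with a mean of at least 5 TPM in a condition. Libraries share their condition and run here, and the correlations, over log2(TPM + 1), are a description and are given with no test. Rasgrp2 was most like Rasa3 (Pearson r = 0.988, n = 16), Stac2 (0.98) and Cacna1i (0.972). Prkcb was most like Tmed8 (0.987), Ezr (0.986) and Ralgps2 (0.984), Dgkz like Bahd1 (0.986), Dgkd like Zfp777 (0.984) and Rasgrp1 like Rnf4 (0.976). Likeness was lower for Dgka (Crlf3, 0.951), Rasgrp4 (Fth1, 0.95), Prkcd (Mtmr4, 0.946) and Rasgrp3 (Arid2, 0.929). Among the members themselves the closest pair was Dgkd and Prkcb (0.94), followed by Rasgrp1 and Prkcb (0.901). Rasgrp3 and Prkcd formed a pair at 0.786, while Dgka and Prkcd ran against each other at -0.694 (n = 16 for each).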

How the data were processed

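RNA was prepared with an RNeasy Plus Mini kit and Dynabeads mRNA purification, per the labels. The authors deposited 1 TPM table per RNA-seq library. The submitters' processing notes name TopHat 1.4.1, Bowtie, featureCounts 1.5.0, SAMtools 1.4, deepTools 3.0.1 and the mm9 build, with no role or order, and strand use is not given in the sources used here. Not analysed here were 8 ATAC-seq and 4 ChIP-seq samples. Suffixes that mark overlapping models (3539 genes) were removed to match names, and such values stay uncertain.

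TPM was tested as log2(TPM + 1) with limma 3.58.1 in R 4.3.3, over all genes with at least 1 TPM in as many libraries as the smaller group held (4 for the difference between CpG and HEL), with Benjamini-Hochberg adjustment over all of them and a threshold of 0.05. The pseudocount of 1 understates changes of low genes. Only the libraries of the 2 conditions compared entered a fit, except the difference between CpG and HEL, which used the 4 conditions. Whole reads were recovered for 18843 of 18843 genes above 0 TPM (each within 0.01 of a whole read). They gave 12126702 to 25424364 reads per library, and limma's voom on them, an alternative, called 3496 genes for loss of Ikaros after HEL and 1629 after CpG. The other alternatives were a pseudocount of 0.1, no filter, median-ratio scaling, all 28 libraries in 1 fit, sex as a term, a term for the block of library numbers after CpG, each library left out, and male libraries only, the last chosen after seeing the data. The method was checked on simulated data.

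The members and lists were chosen with earlier results of these data known. All members were tested in every comparison, except Rasgrp4 for loss of Ikaros after CpG, and not every member value is printed. From each pathway list up to 2 genes with the smallest adjusted p and at least 5 TPM in the higher group were available to name. Some list results are not reported here. The 3 genes with the highest Pearson r were taken per member. Sex was read from the level of the Y-linked gene Ddx3y alone (8 female, 20 male libraries). Promoter windows and neighbours came from RefSeq on GRCm38.p6.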

Additional observations from a re-analysis of the deposited data

Results flagged for a closer look

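For 5 members the effect of losing Ikaros differed between CpG-stimulated and HEL-exposed cells by a test of the difference itself. The same test called 22.4% of 11050 genes. The settings also differ in genotype, Cre, run and culture, which cannot be told apart from the stimulus and which no alternative addressed. The difference, CpG minus HEL on the log2(TPM + 1) scale, was 1.5 for Rasgrp2, 0.57 for Prkcb, 0.51 for Dgkz, -0.6 for Prkcd and -0.72 for Rasgrp3, and each of the 5 passed in every alternative tried.

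Rasgrp4 had 1 library apart from the others of its condition. CpG-stimulated Cd23-cre Ikzf1(fl/+) replicate 1 held 1.3 TPM (39 reads), where the other 3 libraries held 0.254 to 0.421 TPM (9 to 14 reads). Its gap to the nearest library, as a share of the range of the 4, was above Dixon's critical value. Groups of 4 and 5 libraries, 36 of member and condition in all, were looked at, this was the 1 so marked, and a test at this level marks about 1 group in 20 by chance.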

How the results depend on the processing

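Of 38 member calls, 25 held in every alternative, and of 1174 member values under alternatives 1073 kept their direction and side of the threshold, as did 1407 of 1554 values of the named pathway genes, where 147 no longer passed. The cause of the changes below was not tested. Leaving out 1 library at a time, the members called numbered 8 to 9 for loss of Ikaros after HEL (8 in the text), 0 to 2 after CpG (0), 0 to 0 in naive cells (0), 1 to 2 for anergic against naive (1), 3 to 6 for HEL controls against naive (5), 3 to 7 for anergic against HEL controls (5) and 6 to 7 for HEL Ikaros-deficient against anergic (6). With male libraries only they were 4 for loss of Ikaros after HEL, 3 for anergic against HEL controls and 3 for HEL Ikaros-deficient against anergic. All 28 libraries in 1 fit gave 2 after CpG and 2 in naive cells, the term for the block of library numbers gave 2 after CpG, voom gave 2 for anergic against naive, and both median-ratio scaling and voom gave 3 for anergic against HEL controls.

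Signs turned only for members that did not pass in the text. With median-ratio scaling and voom these were, in naive cells, Rasgrp3 (0.0506 and 0.0559) and Prkcd (0.0144 and 0.0187), Dgkz in HEL controls against naive (0.11 and 0.10) and in anergic against HEL controls (-0.0216 and -0.0067), and Rasgrp3 in HEL Ikaros-deficient against anergic (0.047 and 0.0423). With male libraries only, Rasgrp2 in anergic against HEL controls was 0.0532. With 1 library left out the log2 difference ran from -0.1104 to 0.0083 for Prkcd after CpG, and from -0.1583 to 0.0304 for Rasgrp3 in naive cells. In anergic against naive it ran from -0.13 to 0.15 for Dgka, from -0.25 to 0.0025 for Dgkd and from -0.1331 to 0.0838 for Prkcb, and in anergic against HEL controls from -0.14 to 0.10 for Rasgrp2. For CpG minus HEL it ran from -0.0317 to 0.0276 for Dgkd and from -0.044 to 0.1979 for Rasgrp1.

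Over all genes, median-ratio scaling moved the counts of higher and lower genes from 1036 and 3979 to 2214 and 2004 (HEL controls against naive), from 3860 and 565 to 1073 and 1432 (anergic against HEL controls), from 471 and 304 to 410 and 442 (anergic against naive), from 1619 and 5142 to 2963 and 2825 (HEL Ikaros-deficient against naive), from 1263 and 5407 to 2535 and 2264 (the same against anergic) and from 1685 and 794 to 1353 and 1063 (CpG minus HEL). Genes called went from 3790 to 1342 with male libraries only after HEL and from 1551 to 2379 with 1 fit of all libraries after CpG (909 to 1907 with a library left out). In naive cells they went from 2 to 0 without a filter, 17 with median-ratio scaling, 58 with voom, 240 with sex as a term and 418 with 1 fit of all libraries. They went from 775 to 323 to 1153 with a library left out in anergic against naive. No paired analysis was possible because the labels give no replicate numbers, and the block of library numbers after CpG ties no library to another. Depth limited Rasgrp4 most, at 9 to 46 reads per CpG library.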

Other observations

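Prkch, a protein kinase C low in these B cells, was picked after its values were seen. It was at 0.220 to 0.391 TPM in HEL controls and at 1.27 to 1.95 TPM in HEL Ikaros-deficient cells, and at 0.419 to 0.752 against 1.46 to 2.40 TPM after CpG. In both settings it passed the filter on low values only through the libraries without Ikaros, so the values are a description with no test. Naive libraries held 1.88 and 1.94 TPM with Ikzf1(fl/-) and at 1.19 and 1.56 TPM with Ikzf1(fl/+).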
